A study of Mus musculus with 16 samples.

Results

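The integrated stress response and serine synthesis genes were followed as 10 named transcripts, *Atf4*, *Ddit3*, *Trib3*, *Sesn2*, *Ppp1r15b*, *Phgdh*, *Psat1*, *Psph*, *Mthfd2* and *Asns*, chosen by gene name from a table of 28618 entries in which each of them has 1 entry. Poly(A)-primed RNA-seq libraries (Smart-seq2, a method for very small inputs) had been made from pools of mouse oocytes of 2 genotypes at 2 stages, and each of the 4 groups had 4 biological replicates. WT females were wildtype by label, and *Psma7* cKO females were Zp3-Cre; *Psma7* flox/flox, so that a subunit of the 20S proteasome core was deleted by a Cre that is driven by a zona pellucida promoter and acts in growing oocytes only. All females were 3 to 4 weeks old and had received 5 IU of PMSG, a gonadotropin that makes follicles grow. Germinal vesicle (GV) oocytes, arrested before the first meiotic division, were taken 44 h later. Metaphase II (MII) oocytes, called eggs here, were taken from the oviduct 14 to 16 h after a further injection of hCG, which triggers ovulation, and were freed of cumulus cells with 0.3% hyaluronidase. MII is the stage on the labels. The study reports that some ovulated cKO oocytes had not completed the first meiotic division or were still at the GV stage. How far such cells entered the cKO egg pools was not tested. Sources differ on how many cells a pool held, and whether WT females carried a floxed allele or Cre was not given in the sources used here.

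In the integrated stress response, kinases that sense amino acid shortage, misfolded protein, viral RNA or lack of haem phosphorylate the initiation factor eIF2, which lowers protein synthesis in general while the mRNA of the transcription factor ATF4 is translated more. ATF4 then switches on genes for amino acid supply, among them the enzymes that make serine from a glycolytic intermediate and feed it into the folate cycle, and genes such as *Ddit3* and *Trib3* that act when the stress lasts. Much of this control acts on translation, so an mRNA level is not a measure of ATF4 activity. Fully grown oocytes transcribe very little, and many of their stored mRNAs are removed during maturation.

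Values are FPKM, fragments per kilobase of transcript scaled to the mapped fragments of the library, which allows levels to be compared between genes per length. FPKM is a share of a library: fewer cells in a pool, less mRNA per cell and a changed mix of mRNAs cannot be told apart by it. The deletion was visible in every library. *Psma7* stood at 11.1 to 18.0 FPKM in cKO GV oocytes against 142 to 201 in WT GV oocytes, and at 13.6 to 59.9 in cKO eggs against 97.7 to 172 in WT eggs. Depth estimated from the steps between low values was 10.6 to 15.7 M (mega) fragments per library, which limits the precision of genes below 1 FPKM. The oocyte markers were high in all libraries (summed FPKM of 12 genes 11033 to 17696), and 12 of 16 cumulus and granulosa markers, *Fshr*, *Amh* and *Foxl2* among them, stayed below 1 FPKM in all 16. Of the other 4, *Cyp19a1* (6.20 to 15.2 FPKM), *Kitl* (3.24 to 7.16) and *Nr5a2* (1.94 to 3.94) were above 1 in all libraries and *Cyp11a1* (0.273 to 2.63) in 7. Among the 8 egg libraries, cKO egg replicate 3 stood apart. With 0.5 FPKM added to both values, 222 of 28618 entries (0.776%) were at least 2-fold above the highest of the other 7. In each of those, 7 to 24 entries were.

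*Mthfd2* and *Atf4* were the most abundant of the 10 in WT GV oocytes, with means of 124 ± 7.56 and 116 ± 27.3 FPKM (SD, n = 4) and ranges that overlapped. *Phgdh* (29.6 ± 6.61) and *Ddit3* (23.1 ± 4.54) followed and overlapped each other too. *Ppp1r15b* lay at 8.20 ± 1.12 and *Asns* at 2.96 ± 0.578 FPKM, each apart from its neighbours in this order. *Sesn2* (1.36 ± 0.505), *Trib3* (0.813 ± 0.374) and *Psph* (0.707 ± 0.119) could not be separated by their spread, and *Psat1*, at 0.0916 ± 0.0498, was close to absent. Serine synthesis was therefore represented very unevenly: the mRNA of its first enzyme was abundant, and those of the enzymes that follow were at or below 1 FPKM. In WT eggs the order changed, with *Mthfd2* at 123 ± 9.95, *Atf4* at 43.5 ± 11.6 and *Ppp1r15b* at 6.60 ± 0.707 FPKM above all others and the remaining 7 at means under 2 FPKM.

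**Figure D1:**
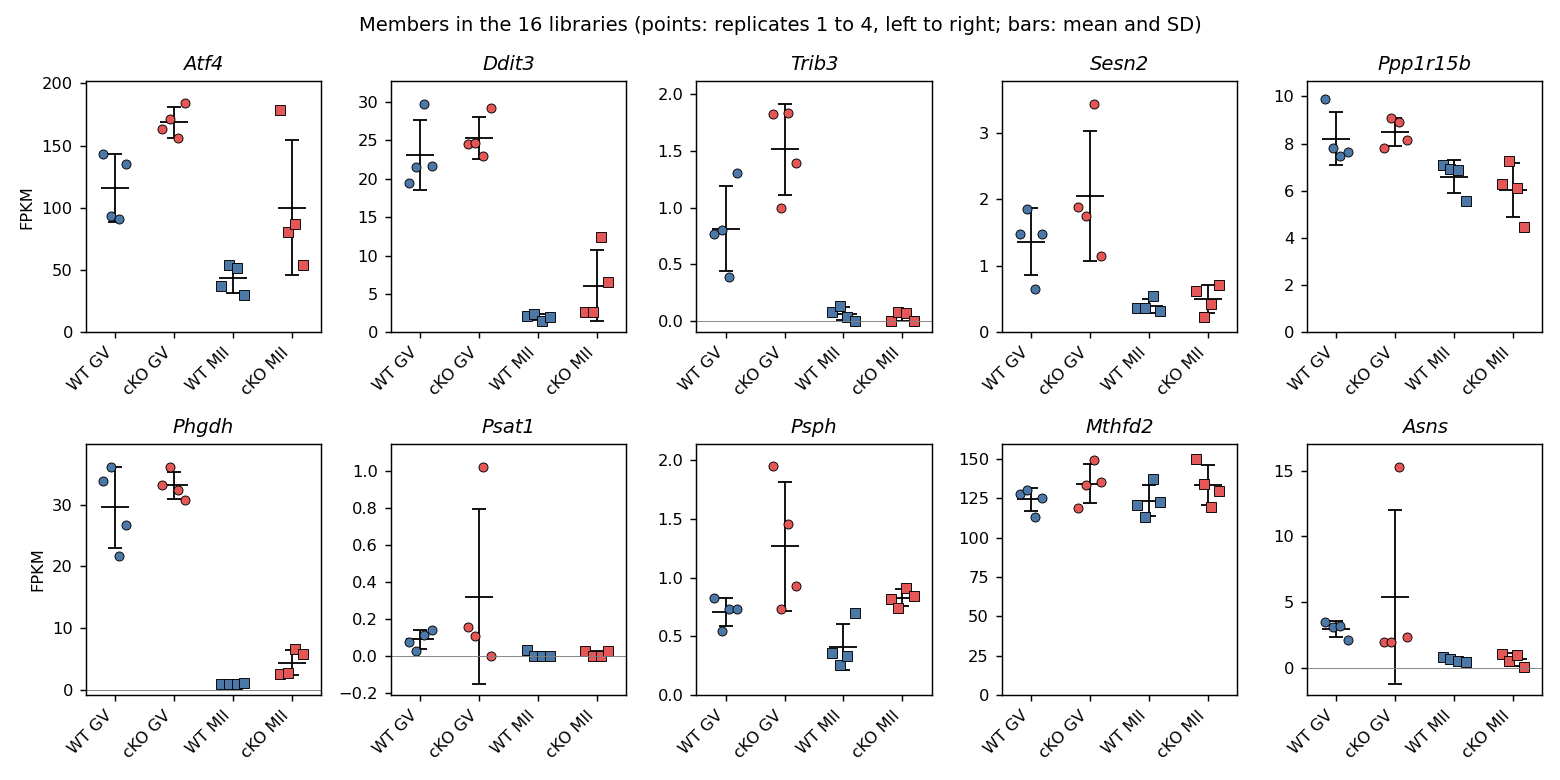
Each panel plots the FPKM of 1 gene (vertical axis) in the 4 groups, with circles for GV oocytes and squares for eggs, blue for WT and red for cKO, replicates 1 to 4 from left to right and black bars for mean and SD. The means of *Atf4*, *Ddit3* and *Phgdh* are lower in eggs than in GV oocytes and higher in cKO eggs than in WT eggs, with *Atf4* overlapping between genotypes in eggs and between stages in cKO, *Mthfd2* stays between 113 and 150.2 FPKM throughout, and *Asns* and *Psat1* are high in cKO GV replicate 3 alone.

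*Atf4* (GRCm38 chr15:80255184-80257541, plus strand), the transcription factor at the centre of the response, was higher in cKO than in WT at both stages in its group means, although neither difference passed the test across all transcripts. WT GV oocytes held 143, 93.6, 90.8 and 135 FPKM in replicates 1 to 4, and cKO GV oocytes held 163, 171, 156 and 185. Every cKO value lay above every WT value. The ratio of the means was 1.46, and limma gave a log2 fold change of 0.57 (SE 0.15) on floored FPKM with a Benjamini-Hochberg adjusted p of 0.185. A two-sided exact permutation test of *Atf4* alone gave p = 0.0286, the smallest that 4 against 4 allows. Of the transcripts tested at this stage 4.25% separated the groups in the same direction.

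In eggs, *Atf4* measured 37.6, 54.4, 51.8 and 30.2 FPKM in WT and 179, 80.7, 86.8 and 54.1 in cKO. The groups met at a single pair of values, the lowest cKO egg library lying just under the highest WT one. The ratio of the means was 2.30 (log2 fold change 1.10, SE 0.34, limma adjusted p = 0.0714, two-sided exact permutation p = 0.0571). Replicate 1 of the cKO eggs contributed most: its 179 FPKM was 106% of the cKO GV mean, whereas the other cKO eggs stood at 32.1 to 51.4% and the WT eggs at 26.1 to 47.1% of their GV means. Without it the log2 fold change was 0.78 (adjusted p = 0.0898). The shared libraries make the comparisons of a gene dependent on each other, and the difference between the genotype effects of the stages was not significant for *Atf4* (0.53, SE 0.40, adjusted p = 0.535).

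The level of *Psma7* differed between the same libraries. *Psma7* in cKO eggs was 13.6, 50.3, 35.0 and 59.9 FPKM in replicates 1 to 4, so that *Atf4* was highest in the egg library with least *Psma7* and lowest in the one with most, and the ranks of the other two were opposite as well. In cKO GV oocytes, where *Psma7* was 14.5, 14.7, 11.1 and 18.0 FPKM, both transcripts had the same rank order instead. *Psma7* was called higher in cKO eggs than in cKO GV oocytes (log2 fold change 1.27, SE 0.41, limma adjusted p = 0.0188), with overlap of the groups and no call without cKO GV replicate 3 (adjusted p = 0.0552) or cKO egg replicate 4 (0.0513). With 4 libraries per group neither order was tested.

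*Ddit3* (chr10:127290774-127296288, plus strand) encodes CHOP, a transcription factor linked to cell death under lasting stress. The genotypes overlapped in GV oocytes, with 19.5, 21.6, 29.8 and 21.7 FPKM in WT and 24.5, 24.7, 22.9 and 29.3 in cKO (log2 fold change 0.14, SE 0.14, limma adjusted p = 0.775). WT eggs held 2.05, 2.42, 1.47 and 1.93 FPKM and cKO eggs 2.68, 2.58, 12.5 and 6.52. All 4 cKO eggs were above all WT eggs, with 2 of them barely so and replicate 3 far above. The means differed 3.08-fold, the log2 fold change was 1.33 (SE 0.47), the adjusted p 0.103 and the two-sided exact permutation p 0.0286. Without cKO egg replicate 3, the library that stood apart, it was 0.88 (adjusted p = 0.153). Exons of *Ddit3* overlap those of *Mars* and *Gm4189* on the other strand, and the protocol keeps no strand, so their reads cannot be told apart in the overlap.

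*Trib3* (chr2:152337422-152344032, minus strand), a pseudokinase that binds ATF4 and damps its output, was near the detection limit. In GV oocytes its values were 0.763, 0.800, 0.389 and 1.30 FPKM in WT and 1.83, 0.999, 1.84 and 1.39 in cKO, which corresponds to an estimated 11 to 30 fragments against 30 to 59. The cKO values were mostly higher but overlapped those of WT (log2 fold change 0.46, SE 0.21, limma adjusted p = 0.482). No egg library exceeded 0.133 FPKM, or about 4 fragments.

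*Sesn2* (chr4:132492032-132510501, minus strand) encodes a sestrin that restrains mTORC1 when leucine is short. It ranged from 0.655 to 1.85 FPKM in WT GV oocytes and measured 1.88, 1.75, 3.44 and 1.14 in cKO GV oocytes (log2 fold change 0.42, SE 0.31, limma adjusted p = 0.674), and 0.236 to 0.715 in all eggs. *Ppp1r15b* (chr1:133131143-133139783, plus strand) encodes the constitutive partner that brings protein phosphatase 1 to eIF2 and so ends the response. Its GV values were 9.87, 7.83, 7.48 and 7.63 FPKM in WT and 7.82, 9.10, 8.89 and 8.16 in cKO, and its egg values were 7.08, 6.90, 6.88 and 5.55 in WT and 6.28, 7.26, 6.10 and 4.46 in cKO. The genotypes overlapped at both stages (log2 fold change 0.06, SE 0.13, adjusted p = 0.912 in GV oocytes and -0.15, SE 0.16, adjusted p = 0.578 in eggs). An antisense gene, *Gm26616*, shares exon sequence with it.

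Of the serine synthesis enzymes, *Phgdh* (chr3:98313170-98339990, minus strand), which oxidises 3-phosphoglycerate in the first step, was the member called between genotypes. GV oocytes did not separate, with 33.8, 36.1, 21.7 and 26.7 FPKM in WT and 33.2, 36.1, 32.4 and 30.8 in cKO (log2 fold change 0.19, SE 0.15, limma adjusted p = 0.714). WT eggs were tightly grouped at 0.994, 0.914, 0.933 and 1.05 FPKM, and cKO eggs held 2.51, 2.72, 6.55 and 5.77. Every cKO egg had more than double the highest WT value. *Phgdh* was 4.51-fold higher by the means, with a log2 fold change of 1.98 (SE 0.31), a limma adjusted p of 0.0191 and a two-sided exact permutation p of 0.0286. Its WT egg mean is under the filter of 1 FPKM, so it entered the test through the cKO eggs. WT egg replicates 1 to 3 were set to the floor in that fit. Its SE and p therefore hold almost no spread from the WT egg pools. Omitting WT egg replicate 1, 3 or 4 raised the adjusted p to between 0.0570 and 0.0701 while the log2 fold change stayed at 1.98 to 2.00. Without cKO egg replicate 3 it was 1.75 (adjusted p = 0.0217).

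The genotype effect on *Phgdh* was 1.80 larger on the log2 scale in eggs than in GV oocytes (SE 0.36, limma adjusted p = 0.0308), the one interaction called among 7 members tested (1.07% of all transcripts were called in that direction and 0.188% in the other). That call did not survive the omission of WT GV replicate 1 or 4, cKO GV replicate 2, 3 or 4, or WT egg replicate 1, 3 or 4, with adjusted p between 0.0509 and 0.0706. The interaction test used the same floored WT egg values.

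*Psph* (chr5:129765558-129787449, minus strand) encodes the phosphatase of the last step. WT GV oocytes held 0.824, 0.541, 0.733 and 0.730 FPKM and cKO GV oocytes 1.95, 0.733, 1.45 and 0.930, an overlap of the groups. Eggs held 0.358, 0.259, 0.331 and 0.694 FPKM in WT and 0.817, 0.742, 0.915 and 0.840 in cKO. The cKO eggs were all above the WT eggs, 2.02-fold by the means, but every value lay under the floor of 1 FPKM and was not tested by limma. With 0.1 FPKM added in place of the floor, a choice made after seeing the data, the two-sided exact permutation p was 0.0286. Exons of *Psph* overlap those of *Cct6a*, a chaperonin subunit, on the other strand.

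*Mthfd2* (chr6:83305691-83325908, minus strand), the mitochondrial folate enzyme that passes on serine's carbon, passed no genotype test. It measured 128, 130.5, 113 and 125 FPKM in WT GV oocytes, 119, 134, 149 and 136 in cKO GV oocytes, 121, 113, 137 and 123 in WT eggs and 150.2, 134, 119.6 and 129.9 in cKO eggs. All groups overlapped, and the log2 fold change of cKO against WT was 0.11 (SE 0.09) at either stage, with limma adjusted p of 0.733 and 0.425.

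Over the 10 genes, 8 passed the filter in the GV comparison and limma called none at an adjusted p under 0.05. At an unadjusted limma p under 0.05 there was 1 higher, *Atf4*, and 0 lower, where 843 of 11062 transcripts were higher and 339 lower. At the adjusted threshold 0.0994% of all transcripts were called higher and 0.0181% lower. In eggs 5 passed the filter and 1, *Phgdh*, was called higher and none lower, where 6.53% and 1.49% of all transcripts were. Floored means were over 3-fold higher in cKO for *Ddit3* and *Phgdh*, or 2 of 10, beside 167 of all 28618 entries (0.584%). Only 9492 of those entries passed the filter, and an entry at the floor in both groups cannot differ. Groups did not overlap for 2 of the 5 members tested, *Ddit3* and *Phgdh*, beside 13.6% of all transcripts tested. The median log2 fold change of the members tested was 0.21 in GV oocytes and 1.10 in eggs, beside 0.04 and 0.07 over all transcripts. *Trib3* in GV oocytes and *Phgdh* in eggs passed the filter through the cKO libraries only. Under median-ratio rescaling the split of calls over all transcripts in eggs, 620 higher and 141 lower, became 510 and 207.

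**Figure D2:**
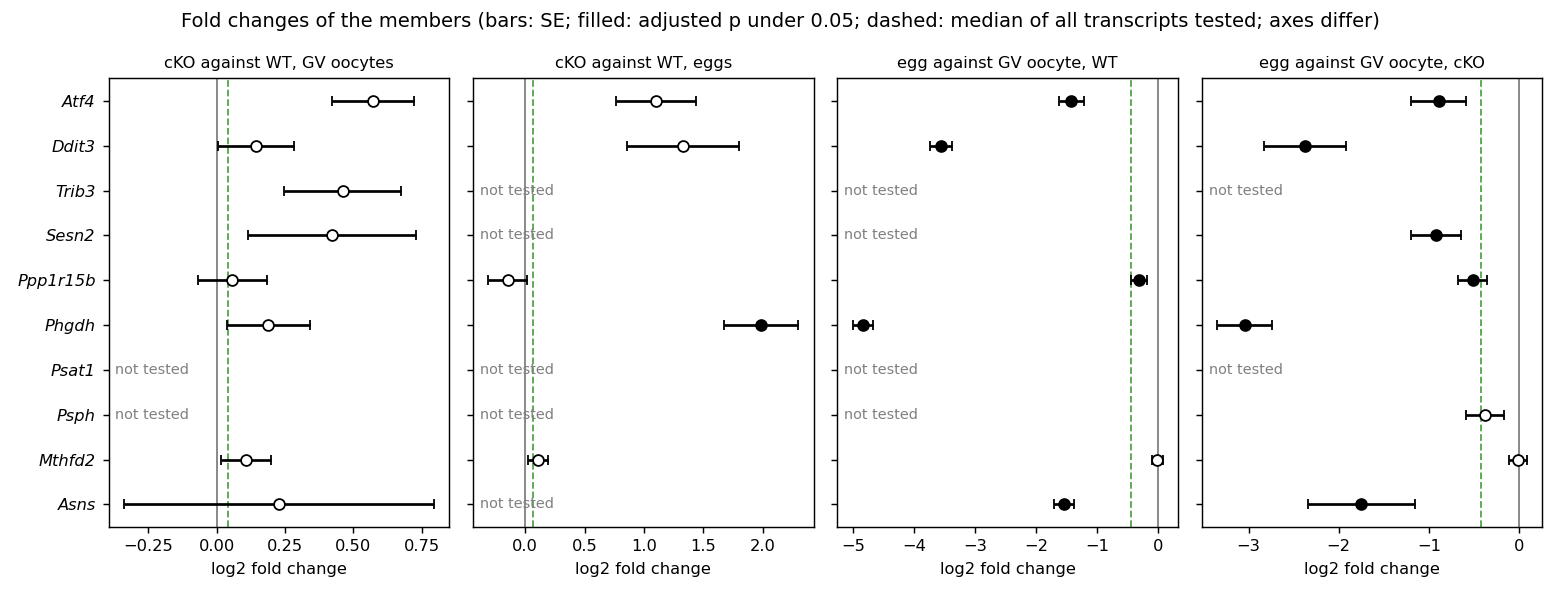
Points are log2 fold changes of floored FPKM with SE bars for the 10 genes (rows) in 4 comparisons (panels, each with its own horizontal scale), filled where the limma adjusted p is under 0.05, with a dashed line at the median of all transcripts tested. *Phgdh* in eggs, at 1.98, is the filled point of the genotype panels, and the maturation panels hold filled points only to the left of 0.

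*Asns* (chr6:7675169-7693254, minus strand), which makes asparagine and is a standard reporter of ATF4 activity, was set apart by a single library. WT GV oocytes gave 3.46, 3.09, 3.15 and 2.12 FPKM and cKO GV oocytes 1.94, 1.96, 15.3 and 2.31. Replicate 3 of the cKO stood more than 4-fold above every other GV library, with an estimated 537 fragments against 54 to 120, while the other cKO values lay within or under the WT range. *Psat1* (chr19:15904678-15947337, minus strand), the transaminase between PHGDH and PSPH, was at 0.0785, 0.0287, 0.117 and 0.143 FPKM in WT GV oocytes and at 0.157, 0.110, 1.03 and 0 in cKO GV oocytes. The same library stood out, with about 40 fragments where the other GV libraries had 0 to 5. Both genes therefore overlapped between genotypes, and *Asns* had a log2 fold change of 0.23 (SE 0.57, limma adjusted p = 0.920) that became -0.50 (adjusted p = 0.498) without that library. *Psat1* did not pass the filter. In eggs *Asns* lay at 0.823, 0.666, 0.494 and 0.436 FPKM in WT and at 1.05, 0.485, 0.953 and 0.0336 in cKO, below the filter and with overlap.

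Further genes of amino acid stress were high in that same library. *Fgf21*, a stress hormone, was at 2.31 FPKM there and at 0.0699 or less in the other 7 GV libraries (46 fragments against 0 to 1), the largest excess of any of the 28618 entries, with *Asns* ranked 3 and *Psat1* ranked 10. *Slc1a5*, a glutamine carrier of the serine and one-carbon list, was at 0.835 FPKM against at most 0.0965 (37 fragments, ranked 11), and *Herpud1*, of endoplasmic reticulum protein degradation, was at 0.827 against at most 0.175 (29 fragments, ranked 17). *Sesn2* ranked 33. These genes were named after their values were seen. In all, 5 of the 10 members (50%) and 12 of 20 other ATF4 targets (60%) had their highest GV value in cKO GV replicate 3, beside 13.9% of all entries above 0. The 5 members were *Asns*, *Psat1*, *Sesn2*, *Trib3* and *Mthfd2*, the last by a small margin. In each of the other 7 GV libraries the share was 0 to 10% of the members and of the targets. Members and lists were chosen with earlier results of these data known, so these shares are a description and not a test. Among the 12 targets some leads were small or near 0, as for *Slc7a5* (1.27 FPKM against at most 1.19) and *Pck2* (0.0188 against 0). The ranks and the 2-fold excess over the next library were taken with 0.5 FPKM added to both values. By that rule 2 members and 1 of the 20 targets, *Fgf21*, qualified in cKO GV replicate 3. So did 4 of 80 entries of members and pathway lists in all, against 16 of 28618 entries (0.0559%). None of the 80 qualified by it in any other GV library. By plain FPKM more entries near 0, such as *Herpud1*, exceed 2-fold.

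*Atf4* itself was not among them, and at 156 FPKM was the lowest of the 4 cKO GV values. Nor were *Ddit3* and *Phgdh* set apart there, with 22.9 and 32.4 FPKM, both at or under the middle of the cKO values. The summed level of the 16 cumulus and granulosa markers was 19.7 to 23.3 FPKM in cKO GV oocytes and 18.1 to 19.9 in WT GV oocytes, and their part in the result was not tested.

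**Figure D3:**
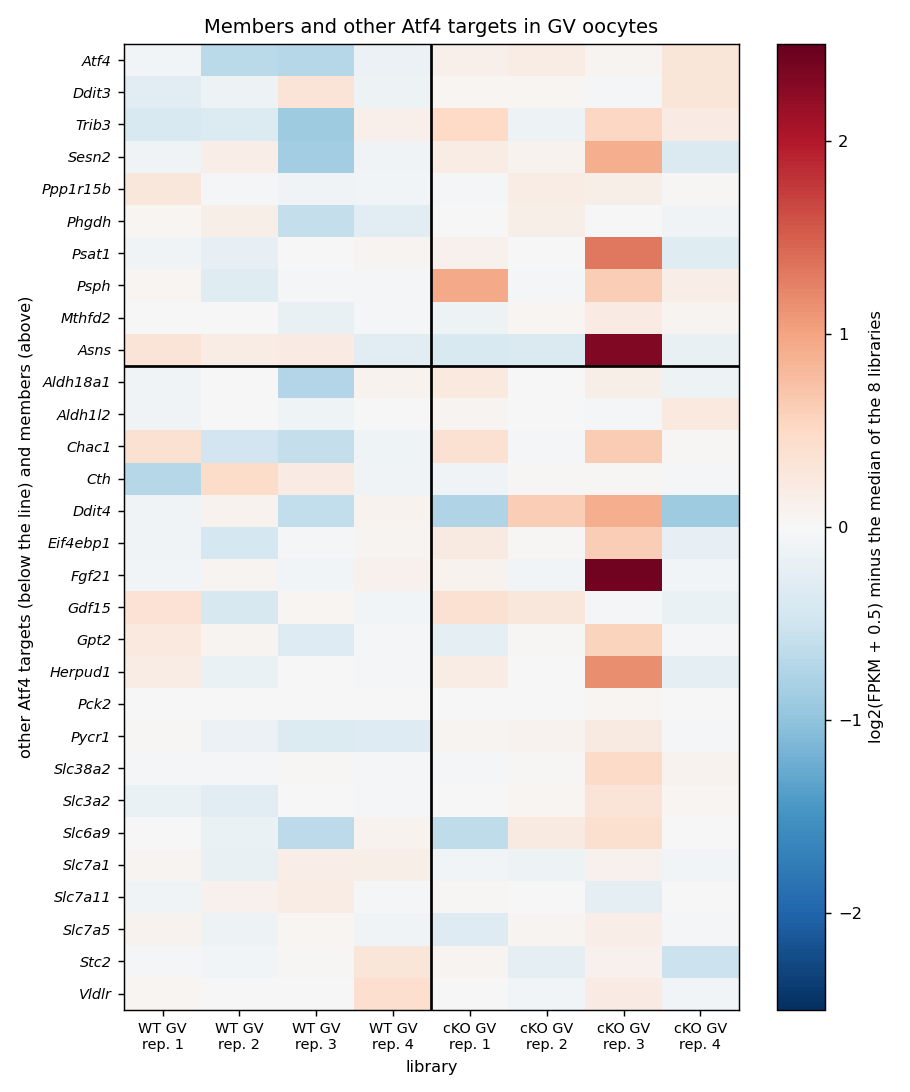
Colours give log2(FPKM + 0.5) minus the median of the 8 GV libraries for the 10 members (rows above the line) and 20 other ATF4 targets (rows below it), with WT replicates left of the vertical line and cKO replicates right of it. *Asns*, *Fgf21* and *Psat1* stand out in cKO GV replicate 3, where 12 of the 20 targets have their highest value. With 0.5 FPKM added to both values, 1 of the targets, *Fgf21*, is at least 2-fold above the next library there.

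ATF4 binds with C/EBP partners to a composite element whose core is TGATGNAA (both strands were searched). RefSeq promoters of GRCm38.p6, running from 250 bases before to 50 after a start site, were found for 9 of the 10 genes, and 2 of them, *Asns* and *Trib3*, held a match, beside 4.51% of 27025 gene symbols with a promoter. Among the other ATF4 targets 7 of 16 with a promoter held a match, *Fgf21* and *Herpud1* included. The matches of the members are shown in 30 bases each, in the direction of transcription with the match in capitals, because *Asns* is the gene that cKO GV replicate 3 set apart most among the 10. The *Asns* match begins 23 bases before the RefSeq start site (window chr6:7693214-7693243, minus strand). The *Trib3* match is the reverse complement, starting at base 15 of the RefSeq transcript (window chr2:152344028-152344057, minus strand). These start sites differ from the GENCODE gene ends given above. By the GENCODE coordinates the *Asns* match lies inside the gene and the *Trib3* match lies upstream of it.
Asns: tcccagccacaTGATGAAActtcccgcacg
Trib3: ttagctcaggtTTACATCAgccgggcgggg
*Psat1*, whose promoter held no match, was high in the same library as *Asns*, and *Trib3*, with a match, was at 1.84 FPKM there beside 1.83 in cKO GV replicate 1.

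Among eggs, cKO replicate 1 was set apart by another set of genes. *Nupr1*, a small stress-induced chromatin protein that was listed here with the partners of ATF4, was at 6.64 FPKM there and at 0.121 or less in the other 7 egg libraries (61 estimated fragments against 0 to 1), the largest excess of all 28618 entries, and *Atf4* ranked 23. With 0.5 FPKM added to both values, these were 2 of 80 entries of members and pathway lists at least 2-fold above the next library, beside 0.0839% of all entries. *Asns* in that egg library was 1.05 FPKM, *Psat1* 0.0273 and *Fgf21* 0, and *Ddit3* was 2.68 FPKM, close to the WT eggs. *Nupr1* was named after its values were seen.

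During maturation, *Phgdh*, *Ddit3*, *Asns*, *Atf4* and *Ppp1r15b* were called lower in both genotypes, and *Sesn2* in cKO. In WT, 6 of the 10 passed the filter, 5 were called lower and none higher, where 52.4% of all transcripts were called lower and 26.1% higher. Floored means fell over 3-fold for 2 of the 10, *Phgdh* and *Ddit3*, beside 2315 of all 28618 entries (8.09%). Only 10475 of those entries passed the filter, and an entry at the floor in both groups cannot fall. *Phgdh* fell most: its WT egg mean was 3.29% of its GV mean (log2 fold change -4.84, SE 0.16, limma adjusted p = 1.4e-09), followed by *Ddit3* at 8.50% (-3.56, SE 0.18), *Asns* at 20.5% (-1.54, SE 0.16), *Atf4* at 37.6% (-1.42, SE 0.21) and *Ppp1r15b* at 80.5% (-0.31, SE 0.13, adjusted p = 0.0488). The first 4 kept their calls in each alternative limma fit that tested them, *Asns* not being tested with a mean of at least 5 FPKM. *Ppp1r15b* lost its call without WT GV replicate 1, 2 or 4 or any 1 WT egg library (adjusted p 0.0563 to 0.133), and with median-ratio rescaling (-0.09, adjusted p = 0.527). *Mthfd2* was at -0.01 and under that rescaling at 0.21 (adjusted p = 0.0335). *Asns* and *Phgdh* passed the filter through their GV values. Every WT egg value of *Asns*, and of *Phgdh* all but replicate 4, was set to the floor of 1 FPKM. Their fold changes in the main fit thus measure the GV level against the floor, with little or no spread from the egg pools. *Sesn2*, *Trib3*, *Psph* and *Psat1* did not pass the filter, and with 0.1 FPKM added the two-sided exact permutation p was 0.0286 for *Sesn2* and *Trib3* and 0.0571 for *Psph* and *Psat1*.

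In cKO, 8 passed the filter, 6 were called lower and none higher, where 51.0% of all transcripts were called lower and 23.0% higher. Floored means fell over 3-fold for 3 of the 10, *Phgdh*, *Ddit3* and *Asns*, beside 1844 of all 28618 entries (6.44%), of which only 10748 passed the filter. *Phgdh* fell to 13.3% of its GV mean (log2 fold change -3.04, SE 0.30), *Ddit3* to 23.9% (-2.37, SE 0.46, limma adjusted p = 0.0011), *Asns* to 11.7% (-1.75, SE 0.60, adjusted p = 0.0236), *Sesn2* to 24.2% (-0.92, SE 0.28, adjusted p = 0.0138), *Atf4* to 59.3% (-0.89, SE 0.30, adjusted p = 0.0224) and *Ppp1r15b* to 70.9% (-0.51, SE 0.16, adjusted p = 0.0138). *Psph* was tested and not called (-0.38, SE 0.21, adjusted p = 0.129), and *Mthfd2* was at 99.4% of its GV mean in both genotypes. *Asns* drew on cKO GV replicate 3 and had a log2 fold change of -1.03 without it, *Sesn2* without that library no longer passed the filter, and *Atf4* lost its call without cKO GV replicate 4 or cKO egg replicate 2 or 4 (adjusted p 0.0501 to 0.0559). Without a filter *Asns* (adjusted p = 0.0734), *Sesn2* (0.0574) and *Atf4* (0.0657) were not called. Rescaling ended the calls of *Atf4* (-0.64, adjusted p = 0.0589) and *Ppp1r15b* (-0.26, adjusted p = 0.141). *Asns*, *Sesn2* and *Psph* passed the filter through their GV values. Every cKO egg value of *Sesn2* and *Psph*, and of *Asns* all but replicate 1, was set to the floor. The median log2 fold change of all transcripts was -0.44 in WT and -0.42 in cKO, and median-ratio rescaling moved these medians to -0.22 and -0.17, and the split of calls in cKO from 2472 higher and 5482 lower to 3314 and 4574.

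How much of each mRNA was left varied between cKO eggs. *Phgdh* stood at 3.09 to 3.56% of the GV mean in WT eggs and at 7.58, 8.22, 19.8 and 17.4% in cKO egg replicates 1 to 4. *Ddit3* stood at 6.35 to 10.4% in WT eggs and at 10.6, 10.2, 49.2 and 25.7% in cKO eggs. For both, cKO replicates 3 and 4 kept most and replicates 1 and 2 were nearer to WT. Beside them, the summed FPKM of 395 other transcripts that fell over 10-fold in WT was 5.93 to 6.80% of its GV level in WT eggs, a range the choice itself sets, and 12.7, 8.80, 34.5 and 19.0% in cKO eggs. The share left of *Phgdh* and *Ddit3* in cKO replicates 3 and 4 was thus accompanied by a large share left of that set, whose part in the 2 results was not tested. *Atf4* did not follow this order, since the cKO egg with most of it was replicate 1.

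**Figure D4:**
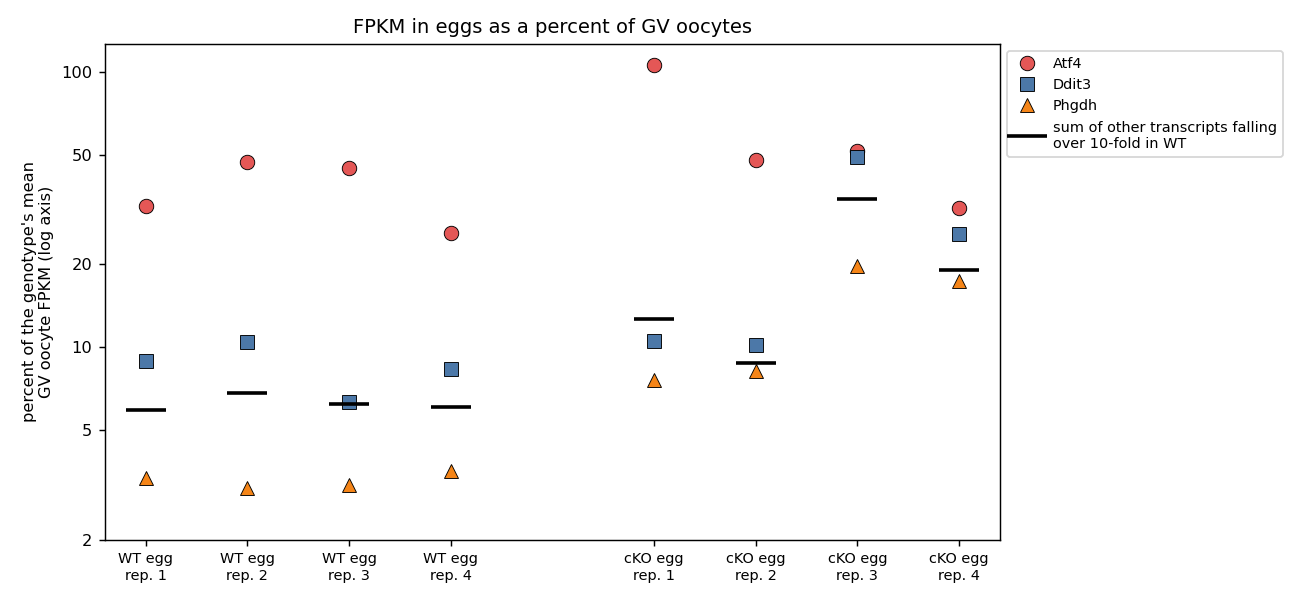
Symbols give the FPKM of *Atf4*, *Ddit3* and *Phgdh* in each of the 8 egg libraries as a percent of the mean GV level of the same genotype (vertical log axis), and black dashes give the same for the summed FPKM of 395 other transcripts that fell over 10-fold in WT. *Phgdh* lies below the dash in every egg, *Ddit3* and the dash are both highest in cKO replicate 3, and *Atf4* reaches 106% in cKO replicate 1.

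The patterns of the 7 members that averaged 1 FPKM or more across all 16 libraries were compared with 10615 transcripts by the root mean square difference of centred log2 values, as a description. Closest to *Atf4* were *Lypla2* (0.30), *H2afx* (0.31) and *Ndel1* (0.31), and to *Phgdh* *Cdc42ep2* (0.30), *Pdcd2* (0.30) and *Ccdc130* (0.32). *Ddit3* had nearer neighbours in *Rnaset2b* (0.14), *Setd4* (0.16) and *Tyms* (0.16), *Ppp1r15b* in *Agpat5* (0.13), *Sidt1* (0.14) and *Bicc1* (0.14), *Sesn2* in *Mbd1* (0.14), *Actr5* (0.20) and *9930104L06Rik* (0.21), and *Mthfd2* in *LOC108168101* (0.06), *Csnk1a1* (0.07) and *Saraf* (0.08). *Asns* had no near neighbour, the closest being *Dhcr7* at 0.46, *Epb42* at 0.51 and *Ppp4r1* at 0.52. No member was among the 3 nearest of another. From *Phgdh*, *Ddit3* was the nearest member (0.65, rank 217).

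The rest of the pathway was read from lists of 67 genes with 70 entries. In GV oocytes 45 entries were tested and limma called none in either direction. At an unadjusted p under 0.05, 2 were higher and 1 lower, beside 843 and 339 of 11062 transcripts. In eggs 41 were tested and 1 was called higher and none lower, beside 6.53% and 1.49% of all transcripts. That 1 was *Eif2b2*, a subunit of eIF2B, the exchange factor that phosphorylated eIF2 inhibits. It measured 9.68, 8.78, 8.79 and 10.4 FPKM in WT eggs and 13.8, 14.1, 23.9 and 13.7 in cKO eggs, so that all cKO eggs were above all WT eggs (log2 fold change 0.76, SE 0.18, limma adjusted p = 0.0404). The call was absent without WT egg replicate 1, 2, 3 or 4 or cKO egg replicate 1. The other ATF4 targets had a median log2 fold change of 0.03 in eggs, where 11 of 20 were tested and none was called. At an unadjusted p under 0.05, 1 was higher and 1 lower in eggs, beside 1952 and 835 of 9492 transcripts. In GV oocytes the median of these targets was 0.20, where 11 were tested and none was called.

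No eIF2 kinase and no eIF2 phosphatase partner passed the test between genotypes. As values for 2 genes that the naming rule did not pick, *Ppp1r15a*, the stress-induced counterpart of *Ppp1r15b*, had means of 20.1 and 22.5 FPKM in WT and cKO GV oocytes and of 22.8 and 22.5 in WT and cKO eggs (adjusted p = 0.725 and 0.902). *Eif2ak1*, the haem-regulated kinase, was the most abundant of the kinases at 69.7 and 72.6 FPKM in GV oocytes and 52.1 and 57.5 in eggs (adjusted p = 0.899 and 0.396).

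Maturation moved the pathway lists in both directions, with 11 of 44 tested entries called higher and 22 lower in WT, and 8 and 25 of 46 in cKO. These shares lie near those of all transcripts, 26.1% higher and 52.4% lower in WT and 23.0% and 51.0% in cKO, and are no result about the lists. Among the subunits of eIF2 and eIF2B, 6 of 8 fell and 1, *Eif2b1*, rose in either genotype. *Eif2b1* reached a log2 fold change of 1.23 (SE 0.08) in WT and 1.14 (SE 0.08) in cKO, while *Eif2b4* fell by 3.49 and by 2.94 and *Eif2b2* by 2.78 and by 2.07. In the serine and one-carbon list 9 of 13 tested fell in each genotype and 3 rose in WT and 2 in cKO, beside the same shares of all transcripts. *Tyms*, thymidylate synthase, fell by 3.60 in WT and by 2.49 in cKO and *Ahcy*, which clears S-adenosylhomocysteine, by 2.74 and by 2.83, whereas *Mat2b*, a regulator of S-adenosylmethionine synthesis, rose by 0.84 and 0.70 and *Mtr*, methionine synthase, by 0.49 and 0.45. The other ATF4 targets were split, 3 higher and 3 lower in each genotype. *Cth*, which makes cysteine from cystathionine, rose by 2.02 in WT and 1.58 in cKO and *Slc3a2*, the heavy chain of amino acid exchangers, by 0.75 and 0.49, while the glycine carrier *Slc6a9* fell by 2.15 and by 1.96, *Gpt2*, an alanine transaminase, by 1.26 in WT and *Chac1*, which degrades glutathione, by 1.49 in cKO. No entry of these lists was called in the interaction. At an unadjusted p under 0.05, 2 were higher and 2 lower, beside 1347 and 534 of 10615 transcripts.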

How the data were processed

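The authors deposited FPKM values for 28618 entries in 16 libraries, made with TopHat2 2.1.1 and Cufflinks 2.2.1 against mm10 per the labels. The annotation they used was not given in the sources used here, gene coordinates are from GENCODE M21, and no counts or spike-in rows were used. Genotype, stage and replicate came from the labels. Values below 1 FPKM were set to 1, as in the study's methods, and log2 values were tested with limma 3.58.1 in R 4.3.3 (intensity trend, entries averaging 1 FPKM or more across the compared libraries, Benjamini-Hochberg over all entries tested, threshold 0.05). Log2 fold changes understate changes near the floor. A fitted SE and p measure spread between pools, of which values set to the floor carry none. Single genes were tested by a two-sided exact permutation test over 70 arrangements. The excess of 1 library over the next, and ranks by it, were taken with 0.5 FPKM added to both values.

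Depth was estimated from the spacing of low values over 5816 genes with 1 transcript, and fragments of a sparse gene were estimated by taking its lowest value above 0 as 1 fragment. Both cover counting error only. The tests were checked on simulated data. Genes named beside the 10 members and *Psma7* were pathway genes past the threshold between genotypes, the 2 highest and 2 lowest past it in maturation for each list of at least 8 genes, and the 3 nearest transcripts of each member. Exceptions are marked in the text. The members and lists were chosen with earlier results of these data known. Alternatives were another floor, 1 FPKM added, other filters, rescaling, no trend, a replicate block, all 16 libraries in one fit, entries summed by name, a 3-fold rule and leaving out each library. Analyses used Python 3.11.15 with scipy 1.17.1.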

Additional observations from a re-analysis of the deposited data

Results flagged for a closer look

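Of 40 groups of 4 values tested for a library far from the others (10 genes in 4 groups), 5 were flagged, where chance flags about 1 in 20. *Asns* in cKO GV replicate 3 (15.3 FPKM) and *Psat1* in the same library (1.03 FPKM) lay far above the other 3 replicates. *Psat1* in WT egg replicate 1 (0.0325 FPKM, about 1 fragment) was flagged because the other 3 were at 0. *Ppp1r15b* was far above the others in WT GV replicate 1 (9.87 FPKM) and far below them in WT egg replicate 4 (5.55 FPKM).

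The genotype effect on *Phgdh* differed between the stages by the interaction test, with 1.80 more on the log2 scale in eggs than in GV oocytes (limma adjusted p = 0.0308). Most WT egg values of *Phgdh* were set to the floor in that test.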

How the results depend on the processing

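No member was called in GV oocytes under any alternative. In eggs 1 member was called higher, but 3 without a filter and with all 16 libraries in one fit (*Atf4* adjusted p = 0.00781 and 0.0151, *Ddit3* 0.0296 and 0.0231), 2 under the 3-fold rule, 0 with a mean of at least 5 FPKM, which removes *Phgdh*, and 0 to 1 leaving out a library. In WT maturation rescaling called 1 member higher, *Mthfd2*, turned from -0.01 to 0.21 (adjusted p = 0.0335), and the 3-fold rule called 2 lower in place of 5. In cKO maturation 3 were lower in place of 6 without a filter and 3 under the 3-fold rule. The *Phgdh* interaction gave 0 calls with 1 FPKM added, 0 without a filter and 0 to 1 leaving out a library. The causes were not tested.

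Deviations of same-numbered replicates correlated at r -0.50 to 0.29, and the main fits were not paired by number. These correlations cannot exclude a shared day or litter. A replicate block left 0 interaction calls among members (*Phgdh* adjusted p = 0.0572), took *Ppp1r15b* in WT maturation to 0.0678 and changed no other member call. *Eif2b2* and *Psma7* (0.0515) in eggs lost their calls, and calls over all transcripts in eggs went from 620 higher and 141 lower to 101 and 7. Over all alternatives those counts ran from 3 to 1328 higher and 0 to 254 lower. Depth of 10.6 to 15.7 M fragments limits *Psat1*, *Trib3* and *Fgf21*, where 1 fragment is a visible step.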
